A study of Mus musculus with 9 samples.

Results

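The growth hormone and insulin-like growth factor (IGF) axis is represented here by 10 genes, chosen by name from the 43346 genes listed in the count table: *Ghr*, *Igf1*, *Igfals*, *Igfbp1*, *Igfbp2*, *Igfbp3*, *Igfbp4*, *Socs2*, *Cish* and *Mup20*. Pituitary growth hormone binds its receptor on hepatocytes, and the receptor-bound kinase JAK2 phosphorylates STAT5, which enters the nucleus and switches on *Igf1*, *Igfals*, *Socs2*, *Cish* and, in male mice, the major urinary proteins. Most circulating IGF-1 comes from the liver and travels with IGF binding proteins, the largest pool in a complex with IGFBP3 and the acid-labile subunit. The SOCS family proteins feed back on the receptor, and SHP2, the phosphatase that NSC-87877 (NSC) inhibits, also acts in signaling downstream of it.

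Whole liver of WT male C57/BL6 mice (C57BL/6J in the methods) aged 12 weeks was profiled by bulk RNA-Seq in 3 groups of 3 livers. Baseline livers were the tissue resected at 0 h from saline (vehicle) mice. The other groups were remnants 40 h after 70% hepatectomy, from mice injected i.p. every 12 h with saline or with 7.5 mg/kg NSC. The labels place the first dose 12 h before surgery, while the methods give the preceding day, so the baseline mice had also received saline. The samples included no NSC-treated livers at 0 h, and both 40 h groups were set against the same 3 baselines. Each library held between 23997363 and 42887589 counts on genes. All 10 genes passed the filter on low counts and were tested among 15024 genes.

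Certain libraries stood apart from their groups. On the second principal component of log2 CPM (counts scaled to a common library size), which held 13.2% of the variance, NSC replicate 1 lay at -31.0, beside the vehicle livers at -28.1, -23.3 and -13.4, whereas the other NSC livers lay at 32.5 and 54.0. Baseline replicate 2 differed in clock genes: *Dbp*, an output gene of the circadian clock, stood at 81.0 CPM there and at 0.411 and 1.29 CPM in baseline replicates 1 and 3. *Arntl*, which encodes the clock activator BMAL1, was at 1.65 CPM against 33.8 and 35.5 CPM. The methods state that surgery was timed with regard to the light cycle, and the labels give no time of day. Since 40 h is not a whole number of days, the remnants were taken at another time of day than surgery. In every comparison with baseline, time of day and hepatectomy therefore cannot be told apart. Of 13 clock genes, 4 fell in vehicle livers and 3 in NSC livers relative to baseline, where 11% and 16.5% of all genes fell, and the part of the clock in the results below was not tested. Calls and counts that change without NSC replicate 1 or baseline replicate 2 are in part given with that value. Ranges of the counts over the fits that leave out 1 library are given near the end. NSC replicate 1 was singled out for lying beside the vehicle livers, so fits without it favour a difference between NSC and vehicle.

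Hepatocyte identity was checked first. For the marker counts that follow, 12.7% of all tested genes rose and 11% fell in vehicle livers, and 18.2% rose and 16.5% fell in NSC livers. The summed level of 9 hepatocyte markers was 122900 to 129800 CPM at baseline, 96970 to 133400 CPM in vehicle livers and 103300 to 118600 CPM in NSC livers. *Alb* alone held 87930 to 95850 CPM at baseline, so the sum mostly follows that gene and says little about the other markers. Of these 9, 3 fell in each 40 h group. Of 10 stellate cell markers, 7 rose in vehicle livers and 3 in NSC livers. Of 10 macrophage markers, 2 rose in vehicle livers and 5 in NSC livers. Of 5 tested cholangiocyte markers, 4 and 3 rose, and of 6 tested neutrophil markers, 2 and 4 rose. In whole liver, fewer cells of a type and less RNA per cell cannot be told apart. Every marker listed in the table had counts in at least 1 library, and the part of cell composition in the results was not tested.

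Promoter sequences of 3 genes are shown because they hold the letters that the growth hormone and insulin pathways are known to act through. STAT5 binds the core TTCNNNGAA, and FOXO1, which insulin keeps out of the nucleus, binds the element CAAAACA. RefSeq windows on GRCm38.p6, from 250 bases before to 50 bases after a transcript start, covered 8 of the 10 genes in 12 windows, and both strands were searched. Over all 32851 windows, 8.3% held TTCNNNGAA and 6.28% held CAAAACA. Among the genes of the axis, *Cish* and *Igfals* held the first and *Igfbp1* the second. Capitals mark the matches, which are descriptions of these letters only. The *Cish* window is chr9:107296409-107296708, the *Igfals* window chr17:24877981-24878280 and the *Igfbp1* window chr11:7197537-7197836, all on the plus strand and printed 5′ to 3′.
*Cish*: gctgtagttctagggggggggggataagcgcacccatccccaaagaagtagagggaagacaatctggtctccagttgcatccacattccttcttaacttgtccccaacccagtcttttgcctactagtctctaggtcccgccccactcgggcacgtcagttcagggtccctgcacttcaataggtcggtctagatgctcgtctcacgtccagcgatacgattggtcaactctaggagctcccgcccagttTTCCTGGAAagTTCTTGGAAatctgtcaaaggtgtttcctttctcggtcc
*Igfals*: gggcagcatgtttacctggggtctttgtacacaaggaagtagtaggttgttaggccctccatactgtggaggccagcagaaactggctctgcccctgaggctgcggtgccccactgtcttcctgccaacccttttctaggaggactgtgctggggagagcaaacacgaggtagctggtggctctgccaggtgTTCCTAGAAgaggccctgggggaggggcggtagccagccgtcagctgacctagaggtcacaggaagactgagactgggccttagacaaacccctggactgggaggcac
*Igfbp1*: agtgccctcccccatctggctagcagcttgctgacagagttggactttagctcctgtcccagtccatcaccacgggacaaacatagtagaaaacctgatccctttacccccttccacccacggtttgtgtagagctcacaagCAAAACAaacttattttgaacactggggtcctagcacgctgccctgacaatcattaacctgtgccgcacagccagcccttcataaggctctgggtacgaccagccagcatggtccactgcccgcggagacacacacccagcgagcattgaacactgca
In *Cish* the matches TTCCTGGAA and TTCTTGGAA begin 0 and 11 bases after the first transcribed base of this RefSeq start. In *Igfals* the match TTCCTAGAA begins 58 bases before the start (position -58), and a further RefSeq start of the gene has TTCTCAGAA at position -236. The remaining *Igfals* window, chr17:24878497-24878796, held no match. It is the window that covers the gene start of the deposited table (24878770), and the printed window lies upstream of it. The *Igfbp1* match begins at position -108.

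At baseline the transcripts spanned a wide range of levels per gene length. In FPKM, the mean was 1868 ± 159 (SD, n = 3) for *Mup20*, 410 ± 218 for *Igfbp1*, 198 ± 47.8 for *Igfbp4* and 90.6 ± 18.0 for *Igfbp2*. *Igf1* (41.5 ± 3.05 FPKM), *Ghr* (40.3 ± 4.49 FPKM) and *Igfals* (38.3 ± 8.27 FPKM) followed with overlapping livers. *Igfbp3* (3.27 ± 0.507 FPKM), *Cish* (1.86 ± 1.53 FPKM) and *Socs2* (1.17 ± 0.372 FPKM) were the lowest, and neighbours among them overlapped. *Igfbp1* and *Igfbp4* also overlapped. At 40 h the order changed in places: in vehicle livers *Mup20* (767 ± 153 FPKM) overlapped with *Igfbp1* (513 ± 226 FPKM), and in NSC livers *Igfbp4* (173 ± 26.7 FPKM) stood beside *Igfbp1* (156 ± 172 FPKM).

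Relative to baseline, vehicle livers at 40 h had lower transcript levels of the receptor, of both partners of the ternary complex and of the urinary protein, while the hormone transcript *Igf1* stayed within the spread of its livers. *Ghr*, *Igfals*, *Igfbp3* and *Mup20* fell and none of the 10 rose (edgeR quasi-likelihood test, Benjamini-Hochberg adjusted p under 0.05). Over all genes tested, 23.7% passed in either direction and 11% fell. NSC livers had lower *Ghr*, *Igfals* and *Igfbp3* than baseline, and none of the 10 rose. There, 34.7% of all genes passed and 16.5% fell. The groups did not overlap for those same 4 genes in the vehicle comparison, where 46.3% of all genes did not overlap, and for the same 3 in the NSC comparison (47.1%). With an added threshold of 1.5 on the absolute log2 fold change, none of the 10 was left in either comparison, where 7.22% and 8.13% of all genes were. For the 10 genes the median log2 fold change was -0.16 in vehicle and -0.49 in NSC livers, against 0.013 over all genes in each comparison. Without baseline replicate 2, 5 of the 10 passed in vehicle and 4 in NSC livers, with *Cish* risen in both. In that fit 18.9% and 28.7% of all genes passed in either direction.

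Directly between NSC and vehicle livers at 40 h, none of the 10 genes passed with edgeR, where 6 of 15024 genes did (0.0399%). At an unadjusted p under 0.05, 5 of the 10 (*Ghr*, *Mup20*, *Igfals*, *Igfbp2* and *Igfbp4*) were counted, against 19.5% of all genes. With DESeq2, 2 passed, *Ghr* and *Mup20*, both higher with NSC, where 6.12% of all genes passed. Without NSC replicate 1 the edgeR test also gave 2, the same genes in the same direction, against 6.46% of all genes. Without that library and baseline replicate 2 it again gave 2, against 9.35%. Both fits drop the NSC liver that lay beside the vehicle livers, so their calls are no independent support for a difference. With the added fold threshold 0.02% of all genes passed and none of the 10. The groups did not overlap for *Ghr*, higher with NSC, and *Igfbp4*, lower with NSC, while 22.5% of all genes did not overlap. P-values here measure only the spread between these samples.

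**Figure D1:**
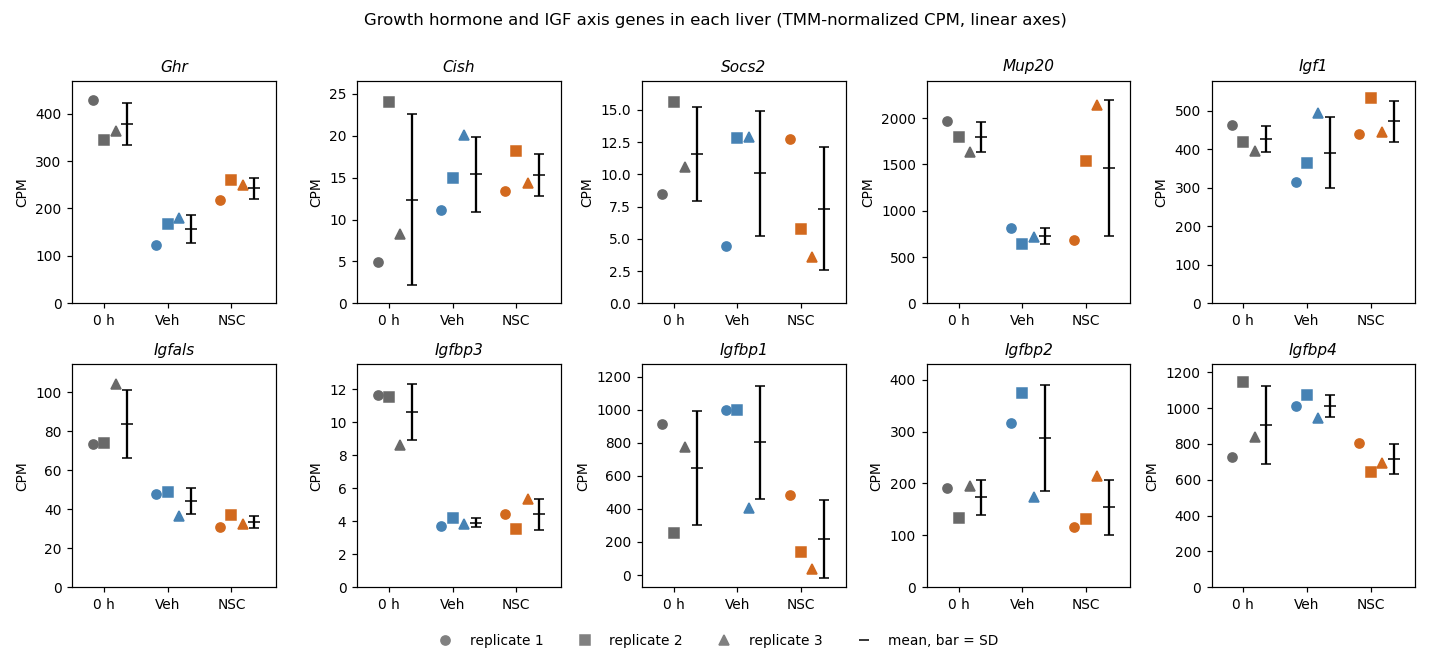
TMM-normalized CPM (y axis, linear) of the 10 genes in each liver (symbols, by replicate number), with the mean and SD of the 3 livers at the right of each group; 0 h is the baseline, Veh and NSC are the 40 h remnants. *Ghr* separates the groups without overlap, *Mup20* in NSC replicate 1 (688 CPM) lies among the vehicle livers, and *Igfbp1* spans 12.9-fold within the NSC group.

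*Ghr* (chr15:3317760-3583492, minus strand) encodes the growth hormone receptor and, in mice, a secreted binding protein from an alternative transcript. The counts cover both forms. At baseline it stood at 428, 344 and 363 CPM. Vehicle livers held 123, 167 and 181 CPM, all below every baseline liver. NSC livers held 217, 260 and 250 CPM, between the other groups and overlapping with neither. The log2 fold change was -1.27 (SE 0.18, edgeR adjusted p = 0.000637) in vehicle and -0.64 (SE 0.18, edgeR adjusted p = 0.0151) in NSC livers. The fall in NSC livers missed the threshold without baseline replicate 1 (-0.55, edgeR adjusted p = 0.0648). NSC exceeded vehicle by 0.63 (SE 0.18), which did not pass with edgeR (unadjusted p = 0.00417, adjusted p = 0.114) and passed with DESeq2 (adjusted p = 0.0202) and without NSC replicate 1 (edgeR adjusted p = 0.0452).

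*Cish* (chr9:107296026-107302784) and *Socs2* (chr10:95385362-95417180) encode STAT5-induced feedback inhibitors that bind the activated receptor. *Cish* stood at 4.90, 24.0 and 8.28 CPM at baseline, 11.1, 14.9 and 20.1 CPM in vehicle livers and 13.4, 18.2 and 14.4 CPM in NSC livers. Baseline replicate 2, the liver that differs in clock genes, was the highest of the 9 for *Cish*. The log2 fold changes of 0.31 in vehicle and 0.31 in NSC livers (SE 0.53 each) did not pass. Without baseline replicate 2, both were 1.22 and passed (edgeR adjusted p = 0.0147 and 0.0106, against 18.9% and 28.7% of all genes passing), and without baseline replicate 1 they were -0.07 and -0.08. Between NSC and vehicle the difference was 0.00 (95% interval -1.03 to 1.03, 1.96 SE).

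*Socs2* levels were 8.50, 15.6 and 10.6 CPM at baseline, 4.48, 12.8 and 12.9 CPM in vehicle livers and 12.7, 5.77 and 3.56 CPM in NSC livers. All 3 groups overlapped. None of its differences passed, and the interval of NSC minus vehicle ran from -1.50 to 0.61 on the log2 scale. Its fitted difference there was -0.44, and -1.10 without NSC replicate 1 (edgeR adjusted p = 0.229). Against baseline it was -0.65 in NSC livers, and -1.31 without that library (edgeR adjusted p = 0.0862). *Cish* shares its locus with *Gm17040* on the opposite strand, which had at most 10 counts in a library against at least 155 for *Cish*.

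*Mup20* (chr4:62050234-62054158) encodes darcin, a male-biased urinary pheromone protein whose transcription depends on growth hormone pulses. At baseline it stood at 1965, 1790 and 1637 CPM. Vehicle livers held 817, 643 and 719 CPM, all below baseline, a log2 fold change of -1.31 (SE 0.32, edgeR adjusted p = 0.0136). Without vehicle replicate 2 or 3 that fall missed the threshold, with edgeR adjusted p up to 0.0540. NSC livers were split: replicate 1 held 688 CPM, within the vehicle range, whereas replicates 2 and 3 held 1538 and 2146 CPM, near or above the baseline livers. NSC differed from baseline by -0.30 (SE 0.32, edgeR adjusted p = 0.490), and by 0.036 without NSC replicate 1. NSC exceeded vehicle by 1.00 (SE 0.32), with adjusted p = 0.141 by edgeR and 0.0313 by DESeq2, and by 1.34 without NSC replicate 1 (edgeR adjusted p = 0.00242). *Mup20* belongs to a cluster of paralogs, many of them near-identical to one another, and how far reads are divided between it and its paralogs was not tested.

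*Igf1* (chr10:87858265-87937042), the hormone of the axis, stood at 463, 420 and 396 CPM at baseline, 314, 365 and 494 CPM in vehicle livers and 438, 533 and 446 CPM in NSC livers. The vehicle livers spanned the full baseline range, and the NSC livers overlapped with both groups. Its log2 fold change was -0.12 in vehicle (95% interval -0.49 to 0.24), 0.15 in NSC livers (-0.22 to 0.52) and 0.27 between them (-0.10 to 0.64). None passed under any of the 17 alternatives run. *Igf1os* overlaps the gene on the opposite strand and had at most 37 counts in a library, against at least 11392 for *Igf1*.

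*Igfals* (chr17:24878770-24882008 in the deposited table) encodes the acid-labile subunit. It stood at 73.4, 73.8 and 104 CPM at baseline, 47.7, 48.6 and 36.4 CPM in vehicle livers and 30.8, 36.7 and 32.3 CPM in NSC livers. Both 40 h groups lay below every baseline liver. The log2 fold change was -0.92 (SE 0.17, edgeR adjusted p = 0.00311) in vehicle and -1.33 (SE 0.18, edgeR adjusted p = 0.000279) in NSC livers, and both passed in all 17 alternatives that test adjusted p alone. The difference of -0.41 between NSC and vehicle did not pass (edgeR adjusted p = 0.225), and these groups overlapped.

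*Igfbp3* (chr11:7206086-7213923), the main IGF carrier in plasma, is made in liver largely by cells other than hepatocytes. It stood at 11.6, 11.5 and 8.65 CPM at baseline, 3.70, 4.22 and 3.80 CPM in vehicle livers and 4.41, 3.50 and 5.36 CPM in NSC livers. Baseline livers were all above the others. The log2 fold change was -1.44 (SE 0.22, edgeR adjusted p = 0.000897) in vehicle and -1.26 (SE 0.22, edgeR adjusted p = 0.00120) in NSC livers, with 0.18 (95% interval -0.25 to 0.60) between them. Of 10 sinusoidal endothelial markers, 3 fell in vehicle livers and 2 in NSC livers, against 11% and 16.5% of all genes. Their summed level was 298 to 323 CPM at baseline, 184 to 284 CPM in vehicle livers and 199 to 344 CPM in NSC livers. The part of endothelial cells in the *Igfbp3* values was not tested.

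*Igfbp1* (chr11:7197782-7202546) lies next to *Igfbp3* and encodes a binding protein that rises with fasting and falls with insulin. It stood at 911, 257 and 776 CPM at baseline, 1000, 999 and 408 CPM in vehicle livers and 486, 136 and 37.7 CPM in NSC livers. The groups overlapped, and the livers of each spread widely, by 3.55-fold, 2.45-fold and 12.9-fold from lowest to highest. The lowest baseline liver was replicate 2. The log2 fold change was 0.31 (SE 0.90) in vehicle, -1.56 (SE 0.93, edgeR adjusted p = 0.234) in NSC livers and -1.87 (SE 0.93, edgeR adjusted p = 0.316) between them. Without NSC replicate 1 the last 2 values were -2.89 (edgeR adjusted p = 0.0552) and -3.21 (edgeR adjusted p = 0.103). Without baseline replicate 2 the vehicle value was -0.07. Without both baseline replicate 2 and NSC replicate 1, NSC differed from baseline by -3.28 (edgeR adjusted p = 0.0327) and vehicle from baseline by -0.07. NSC replicate 1 was the highest NSC liver, so leaving it out, alone or with the lowest baseline liver, widens the gap to baseline. The fit without both was added after seeing the data, and its call is no support for a difference.

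*Igfbp2* (chr1:72824503-72852474) and *Igfbp4* (chr11:99041244-99054392) encode further binding proteins that restrain IGF access to its receptor. *Igfbp2* stood at 191, 134 and 195 CPM at baseline, 316, 374 and 173 CPM in vehicle livers and 117, 131 and 215 CPM in NSC livers. Its vehicle replicate 3 lay within the baseline range. Its log2 difference was 0.73 (SE 0.31, edgeR adjusted p = 0.106) in vehicle livers, passing without vehicle replicate 3 (1.00, edgeR adjusted p = 0.0323), and -0.90 (SE 0.31, edgeR adjusted p = 0.160) between NSC and vehicle.

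*Igfbp4* stood at 726, 1148 and 840 CPM at baseline, 1014, 1074 and 947 CPM in vehicle livers and 807, 644 and 694 CPM in NSC livers. Every NSC liver was below every vehicle liver, while the baseline livers spanned both groups. The difference of -0.50 (SE 0.20) between NSC and vehicle did not pass (unadjusted p = 0.0245, edgeR adjusted p = 0.196).

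**Figure D2:**
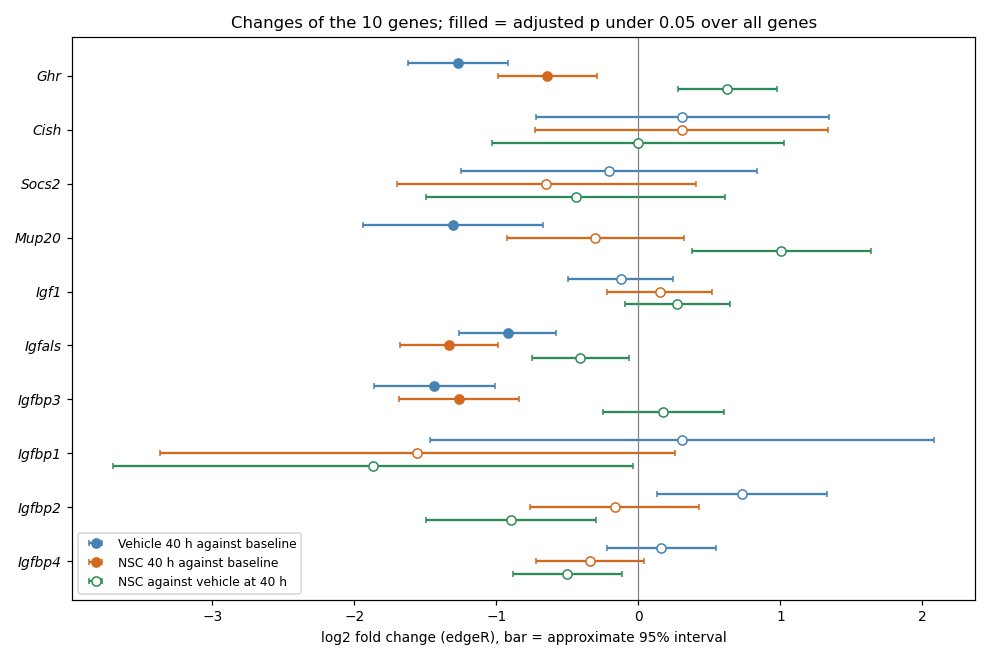
Log2 fold change of each gene (x axis, bars 1.96 SE, 3 livers per group) in the 3 comparisons (colours); filled points have an edgeR adjusted p under 0.05 over all genes, and the comparisons with baseline share the same 3 livers. *Ghr*, *Igfals* and *Igfbp3* are filled in both comparisons with baseline and *Mup20* in vehicle only, and no NSC against vehicle point is filled.

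The binding proteins were also compared as a mix, as the share of each of *Igfbp1* to *Igfbp7* in their summed FPKM. *Igfbp1* took 66.0%, 30.8% and 60.3% at baseline, 59.7%, 57.2% and 43.7% in vehicle livers and 51.6%, 26.1% and 7.32% in NSC livers. *Igfbp4* took 18.2% to 47.6% at baseline, 20.9% to 35.0% in vehicle livers and 29.7% to 46.6% in NSC livers. *Igfbp1* led in every vehicle liver, while *Igfbp4* led in baseline replicate 2 and in NSC replicates 2 and 3. *Igfbp7*, a related protein with low affinity for IGFs, took 7.85%, 9.33% and 10.9% in NSC livers, above the vehicle livers at 3.44%, 3.50% and 5.18%. The smallest p that 3 livers against 3 allow in an exact 2-sided permutation test is 0.1, and after adjustment over the 21 comparisons no p was below 0.35. The summed FPKM itself was 527 to 869 at baseline, 593 to 1159 in vehicle livers and 350 to 681 in NSC livers, so a share can rise without a higher level.

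**Figure D3:**
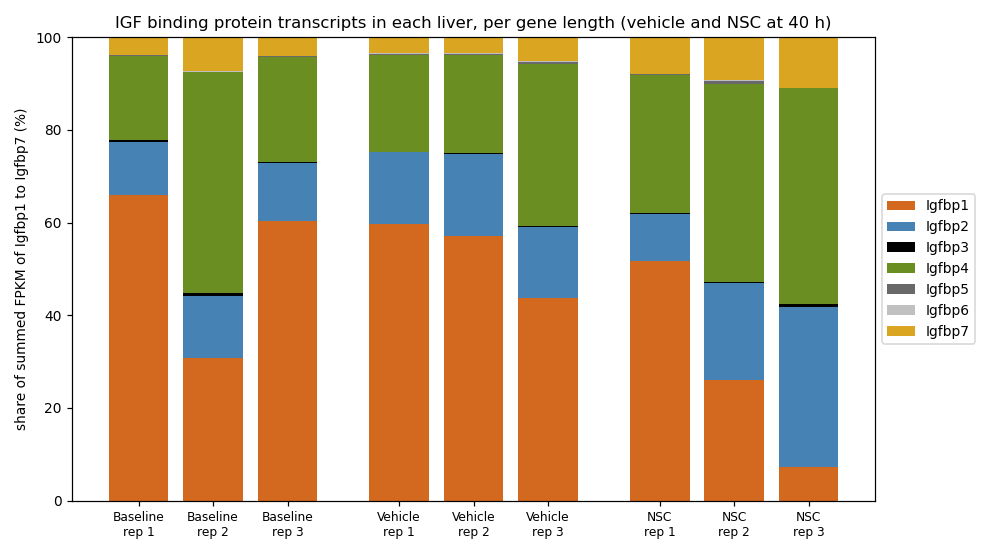
Share of each binding protein transcript (y axis, percent of the summed FPKM of *Igfbp1* to *Igfbp7*) in each liver (x axis, grouped by condition, 1 bar per replicate). The *Igfbp1* segment ranges from 66.0% in baseline replicate 1 to 7.32% in NSC replicate 3.

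Among other genes of the pathway more rose than fell at 40 h, which also holds for all tested genes. Of 36 listed receptors, transducers, inhibitors, adaptors, binding proteins, proteases and target factors, 31 were tested. In vehicle livers 7 rose and 2 fell, against 12.7% and 11% of all genes. In NSC livers 7 rose and 3 fell, against 18.2% and 16.5%, so the risen share there lies near that over all genes. Without NSC replicate 1, 12 passed in NSC livers, where 33.7% of all genes passed in either direction. Between NSC and vehicle none passed with edgeR and 7 had an unadjusted p under 0.05, where 19.5% of all genes did. DESeq2 passed 2, both lower with NSC, where 6.12% of all genes passed, and edgeR without NSC replicate 1 passed 2, both lower, where 6.46% did. The shares of this direct comparison lie near those over all genes. The median log2 fold change of the 31 was 0.36 in vehicle livers, 0.10 in NSC livers and -0.28 between them, against 0.015 over all genes in the last.

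*Socs3*, an inhibitor of JAK2 that cytokines such as interleukin-6 induce, rose in both 40 h groups. It stood at 11.2, 14.9 and 5.81 CPM at baseline, 79.6, 82.5 and 62.3 CPM in vehicle livers and 33.3, 38.5 and 26.7 CPM in NSC livers. The 3 groups did not overlap. Its log2 fold change was 2.81 (SE 0.30, edgeR adjusted p = 0.000231) in vehicle, 1.62 (SE 0.29, edgeR adjusted p = 0.00222) in NSC livers and -1.19 (SE 0.28, edgeR adjusted p = 0.0917) between them. The last passed with DESeq2 (adjusted p = 0.00565), and with edgeR without both libraries that stand apart (-1.20, adjusted p = 0.0233).

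Phosphatases that act on JAK2, STAT5 or the insulin receptor moved in part. *Ptpn1* (PTP1B) rose from 20.9 to 24.3 CPM at baseline to 38.1 to 46.8 CPM in vehicle livers and 29.0 to 39.0 CPM in NSC livers, log2 fold changes of 0.97 and 0.60 (edgeR adjusted p = 0.00109 and 0.00933). *Ptpn2* rose by 0.81 and 0.83 (edgeR adjusted p = 0.00789 and 0.00453). *Ptpn6*, which encodes SHP1, fell by 0.47 in NSC livers (edgeR adjusted p = 0.0229), a call lost without baseline replicate 3 or NSC replicate 2 or 3 (edgeR adjusted p up to 0.107) and with library size as the only scaling (0.118). *Ptpn11*, which encodes SHP2, stood between 70.1 and 94.5 CPM in the 9 livers and differed between NSC and vehicle by -0.07 (95% interval -0.34 to 0.20). NSC acts on the protein, so this transcript does not check the treatment.

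*Stat5b*, the main STAT5 of male liver, stood at 88.6, 47.4 and 84.2 CPM at baseline, 38.7, 45.5 and 36.1 CPM in vehicle livers and 31.4, 35.5 and 30.1 CPM in NSC livers. Both 40 h groups lay below baseline, with log2 fold changes of -0.87 (SE 0.21, edgeR adjusted p = 0.0110) and -1.18 (SE 0.21, edgeR adjusted p = 0.00152). The lowest baseline liver was again replicate 2. In vehicle livers the call was lost without baseline replicate 1 or 3 or vehicle replicate 3, with edgeR adjusted p up to 0.0531.

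*Irs2*, an adaptor of the insulin and IGF-1 receptors, stood at 25.8, 14.0 and 25.5 CPM at baseline and 27.7, 33.1 and 11.6 CPM in vehicle livers. NSC livers held 6.42, 6.08 and 4.54 CPM, all 3 below every other liver. The log2 fold change was 0.15 (SE 0.37) in vehicle (-0.084 without baseline replicate 2), -1.93 (SE 0.39, edgeR adjusted p = 0.00460) in NSC livers and -2.09 (SE 0.39, edgeR adjusted p = 0.0850) between NSC and vehicle, which passed with DESeq2 (adjusted p = 8.11e-06), without vehicle replicate 3 (edgeR adjusted p = 0.0298) and without both libraries that stand apart (0.0399). NSC replicate 1 did not stand apart from its group for *Irs2*. *Foxo1* fell by 0.77 in vehicle livers (SE 0.19, edgeR adjusted p = 0.0114, and 0.0509 without vehicle replicate 3). *Grb10*, an adaptor that dampens insulin and IGF signaling, rose by 1.19 in vehicle and 0.80 in NSC livers (edgeR adjusted p = 0.00256 and 0.0140, the second 0.0787 without both libraries that stand apart).

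**Figure D4:**
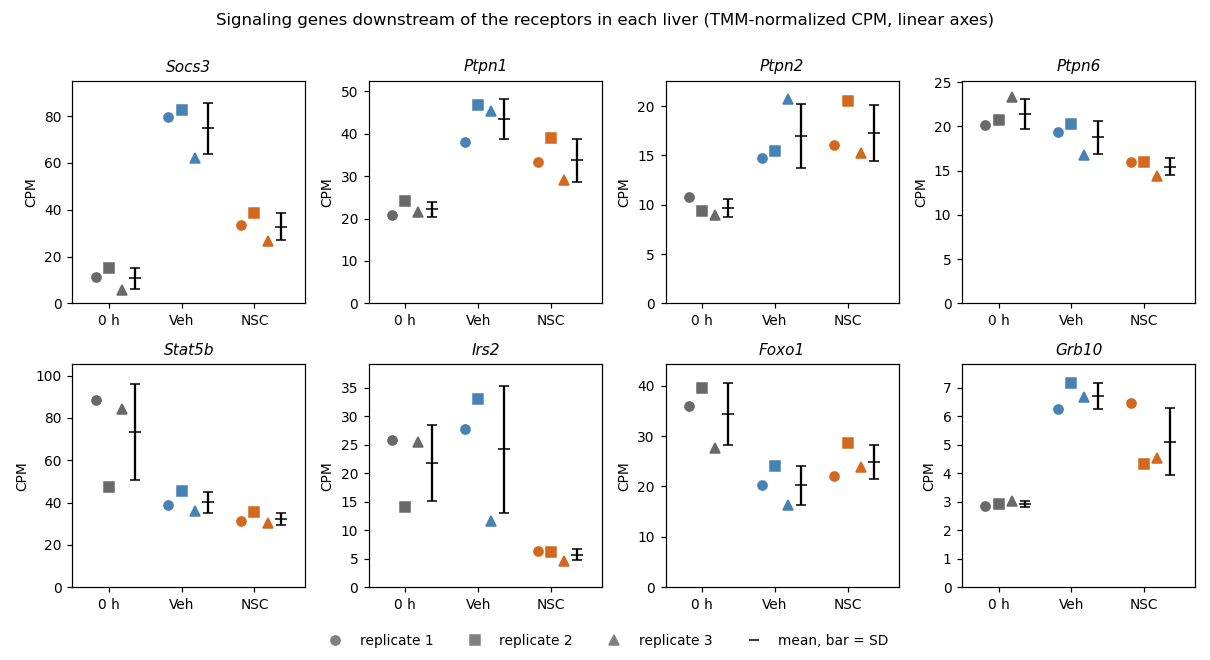
TMM-normalized CPM (y axis, linear) of 8 signaling genes in each liver (symbols, by replicate number) with the mean and SD of 3 livers beside each group. *Socs3* is highest in vehicle livers (62.3 to 82.5 CPM) with NSC livers between them and baseline, and *Irs2* is lowest in all 3 NSC livers (4.54 to 6.42 CPM).

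Liver genes whose sex bias depends on the growth hormone secretion pattern were counted as known targets of the axis. Of 15 male-biased genes, 4 fell in vehicle livers and 3 in NSC livers, where 11% and 16.5% of all genes fell, and none rose. The share in NSC livers lies near that over all genes. Without NSC replicate 1, 8 passed in vehicle livers, all lower, where 29.5% of all genes passed in either direction. In that fit 1 was higher with NSC than with vehicle, a count near the 6.46% of all genes that passed there. *Cyp4a12a*, a fatty acid hydroxylase, fell from 346, 205 and 338 CPM at baseline to 85.0, 58.6 and 101 CPM in vehicle livers and 124, 99.5 and 132 CPM in NSC livers, log2 fold changes of -1.86 and -1.32 (edgeR adjusted p = 0.000429 and 0.00181). *Cyp4a12b*, its close copy, fell by 1.47 and 0.90 (edgeR adjusted p = 0.000583 and 0.00512). *Cyp2d9*, a steroid hydroxylase, fell by 1.41 and 1.43 (edgeR adjusted p = 0.00171 and 0.00104). The cytochrome pairs are paralogs that can share reads.

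Of the 20 other *Mup* genes tested, 5 fell in vehicle livers and 3 in NSC livers, where 11% and 16.5% of all genes fell, and none rose. The count in NSC livers is no more than the share over all genes gives. Without baseline replicate 2, 3 fell in vehicle livers, where 18.9% of all genes passed in either direction. *Mup3* fell by 1.55 and 1.01 (edgeR adjusted p = 0.00489 and 0.0268), and *Mup21* by 1.79 and 1.14 (edgeR adjusted p = 0.00590 and 0.0285). *Mup4* fell by 2.31 and 1.57 (edgeR adjusted p = 0.00768 and 0.0301) from at most 3.06 CPM. The 3 falls in NSC livers were lost without baseline replicate 1 or NSC replicate 2, with edgeR adjusted p up to 0.111 for *Mup3*, 0.0887 for *Mup21* and 0.109 for *Mup4*, and that of *Mup3* also without NSC replicate 1 and that of *Mup21* without baseline replicate 2. The median log2 fold change of these genes was -1.0 in vehicle livers, -0.66 in NSC livers and 0.61 between NSC and vehicle, where none passed with edgeR and none had an unadjusted p under 0.05. Without NSC replicate 1, 2 of these genes passed there, both higher with NSC, where 6.46% of all genes passed. Where reads are shared between copies, the counts of family members are not independent of one another.

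Of 20 female-biased genes, 15 were tested, and 2 fell in vehicle livers and 3 in NSC livers, with none risen, where 11% and 16.5% of all genes fell. Without baseline replicate 2, 1 fell in each, where 18.9% and 28.7% of all genes passed in either direction. Without NSC replicate 1, 2 rose and 2 fell in vehicle livers, where 29.5% of all genes passed in either direction. In that fit 2 were lower with NSC than with vehicle, where 6.46% of all genes passed. *Hamp2*, a hepcidin gene, fell by 2.25 and 2.13 (edgeR adjusted p = 0.00478 and 0.00417). *Cyp2a4*, at most 4.79 CPM in any liver, fell by 2.07 and 2.30 (edgeR adjusted p = 0.0384 and 0.0208). The calls for *Cyp2a4* were lost in 6 of the 9 fits that left out 1 library in vehicle livers and in 2 of 9 in NSC livers. They were also lost without both libraries that stand apart (edgeR adjusted p = 0.107 in vehicle and 0.104 in NSC livers).

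**Figure D5:**
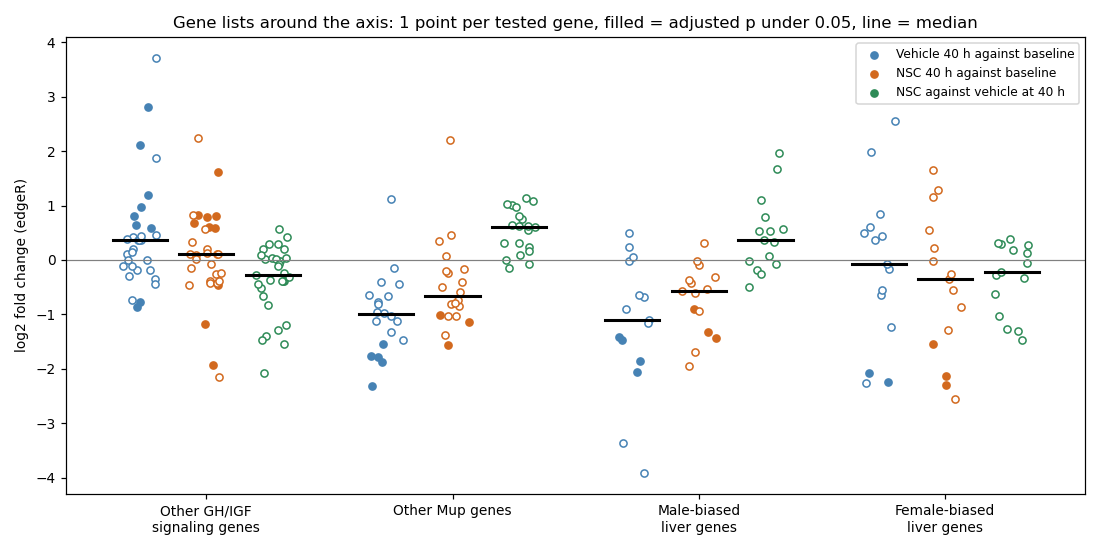
Log2 fold change (y axis) of each tested gene (1 point each, filled where the edgeR adjusted p is under 0.05) in 4 gene lists and 3 comparisons, with the list median as a line. For the other *Mup* genes the median is -1.0 in vehicle livers, -0.66 in NSC livers and 0.61 between NSC and vehicle, and no point of the direct comparison is filled.

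Genes whose log2 CPM followed *Igf1* and *Igfbp1* most closely over the 9 libraries were listed by Pearson r, as a description of 9 livers that share the same 3 groups. For *Igf1* these were *Zfp938* (r = 0.94), *Jtb* (0.93), *Slc35b3* (0.93), *Gm6548* (0.92) and *Mbip* (0.91). For *Igfbp1* they were *Ksr1* (r = 0.98), *Arhgef18* (0.96), *Gmip* (0.96), *Pxk* (0.95) and *Lmtk2* (0.95).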

How the data were processed

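RNA-Seq libraries of 9 whole livers were analysed (baseline, vehicle 40 h and NSC 40 h, 3 each, grouped by sample title). Paired-end reads had been aligned by the authors with STAR 2.6.1, and counted with Subread 1.5.1 (versions from the submitters' processing notes), and the authors deposited raw counts per gene. The deposited FPKM values equal the count divided by gene length plus 1 base and by the library total, with a largest relative difference of 4.97e-10. The notes name a human build, whereas 42462 of 43346 deposited gene IDs are in mouse GENCODE M21 (GRCm38), and 9 of the 10 genes have the same position there.

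Counts were fitted in R 4.3.3 with edgeR 4.0.16 (TMM factors, filterByExpr, robust quasi-likelihood, condition only, all 9 libraries), with Benjamini-Hochberg adjustment over 15024 genes and a threshold of 0.05. DESeq2 1.42.0, RLE factors, library size only, other filters, a replicate block, 2 groups only, a log2 threshold of 1.5 and each library left out were alternatives. Leaving out both libraries that stand apart was added after seeing the data. Depth was 31187349 to 33943842 counts at baseline, 27956396 to 42887589 in vehicle and 23997363 to 30201051 in NSC libraries, so that the number of livers limits precision more than counting for the abundant genes. Standard errors are the absolute log2 fold change divided by the square root of F. The procedure was tested on simulated data.

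The members and gene lists were chosen with earlier results of these data known. The text names all 10 genes, up to 3 risen and 3 fallen genes with the smallest adjusted p per list and comparison, and the 5 genes most like *Igf1* and *Igfbp1*; *Ptpn11* was added as the target of NSC. One gene that the rule names is not reported here. A chi-square test of counts gave 23.9 to 146 per gene for libraries of 1 group, far from a library deposited again.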

Additional observations from a re-analysis of the deposited data

How the results depend on the processing

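Single-gene values kept their direction and their side of the threshold in 1111 of the alternative fits, lost the call in 46, gained it in 20 and changed sign in 24. Whether baseline and vehicle livers with the same number came from 1 mouse is not stated, so the livers were not treated as pairs. Deviations of same-numbered baseline and vehicle livers correlated by -0.0479 to 0.0807, and those of differently numbered ones by -0.115 to 0.0659. With 3 livers per group these values cannot decide whether mice were shared. With a replicate block, 1 pathway gene fell between NSC and vehicle and 1 female-biased gene fell in vehicle livers against 2 without it, while the counts for the 10 genes stayed at 4, 3 and 0. In that fit 23.8% of all genes passed in vehicle livers, 34.5% in NSC livers and 0.0732% between them.

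With the log2 threshold of 1.5 added, the 10 genes gave 0 calls in both comparisons with baseline. The pathway list gave 2 and 2, the other *Mup* genes 1 in NSC livers, and the male-biased list 2 in vehicle and 0 in NSC livers. Over all genes 7.22% passed in vehicle and 8.13% in NSC livers. With DESeq2, NSC against vehicle gave 2 of the 10 genes and 2 pathway genes, where 6.12% of all genes passed. The *Mup* list gave 6 in NSC livers, where 38.1% of all genes passed. The male-biased list gave 7 in vehicle livers, where 28.2% did, and 8 with only the 2 groups compared in edgeR, where 30.5% did. Requiring 10 counts in every library gave 3 *Mup* genes in vehicle livers and 1 female-biased gene in each comparison with baseline. There 24.2% of all genes passed in vehicle and 36.9% in NSC livers.

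Without both libraries that stand apart, 5 of the 10 genes passed in NSC livers against baseline (1 higher, 4 lower), where 32.4% of all genes passed. Between NSC and vehicle 2 passed. In the direct comparison 4 pathway, 2 *Mup*, 3 male-biased and 5 female-biased genes passed, where 9.35% of all genes did. In vehicle livers the male-biased list gave 9 and the female-biased list 6, where 28.4% of all genes passed in either direction. In NSC livers the female-biased list gave 5, where 32.4% did.

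Leaving out each library in turn gave 0 to 2 of the 10 genes between NSC and vehicle, the 2 without NSC replicate 1. Against baseline it gave 3 to 5 of the 10 in vehicle and 2 to 4 in NSC livers. There 14.8% to 29.5% and 23.4% to 33.9% of all genes passed. Vehicle livers gave 5 to 12 pathway, 3 to 6 *Mup*, 3 to 8 male-biased and 1 to 4 female-biased genes, where 14.8% to 29.5% of all genes passed. NSC livers gave 8 to 12 pathway, 0 to 3 *Mup*, 3 to 5 male-biased and 1 to 3 female-biased genes, where 23.4% to 33.9% passed. The direct comparison gave 0 to 2 pathway, 0 to 2 *Mup*, 0 to 1 male-biased and 0 to 2 female-biased genes, where 0% to 6.46% passed. Each highest value of the direct comparison came without NSC replicate 1. *Mup* calls in NSC livers ended without baseline replicate 1.

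Values that changed sign were small in 1 direction, but some were large in the other. Those of *Cish* against baseline reached 1.22 and passed without baseline replicate 2. Leaving out 1 library moved the log2 fold change in vehicle livers from -0.32 to 0.015 for *Igf1*, -0.071 to 0.63 for *Igfbp1*, -0.42 to 0.16 for *Socs2*, -0.075 to 1.22 for *Cish* and -0.14 to 0.49 for *Irs2*. In NSC livers it moved from -0.48 to 0.0004 for *Igfbp2*, -0.079 to 1.22 for *Cish* and -0.69 to 0.036 for *Mup20*, and between NSC and vehicle from -0.19 to 0.23 for *Cish* and -0.12 to 0.19 for *Ptpn2*. *Cish* between NSC and vehicle was 0.0069 with RLE factors, 0.13 with library size only and 0.0052 with DESeq2. Without both libraries, *Cish* was 0.088 there, *Mup20* 0.032 in NSC livers, and *Igfbp1* -0.071, *Socs2* 0.073 and *Irs2* -0.083 in vehicle livers.

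With TMM-scaled counts not divided by length, the share of *Igfbp6* differed by 0.0557 points in vehicle livers, and that of *Igfbp7* by 1.65 points in NSC livers and 2.05 between NSC and vehicle, against 0.117, 4.27 and 5.32 points per length. The cause of the other changes was not tested.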

Other observations

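Pathway genes outside the naming rule were looked at after their values were seen. *Cux2*, a transcription factor known from female mouse liver, stood at 0.348, 0.580 and 0.297 CPM at baseline, at 0.775 CPM in vehicle replicate 3, at 5.38 CPM and above in the other vehicle livers, and at 5.52, 0.0340 and 0.157 CPM in NSC livers. NSC replicate 1 lay with vehicle replicates 1 and 2, and no comparison of *Cux2* passed with edgeR (adjusted p = 0.144 in vehicle and 0.325 in NSC livers). *Bcl6*, a repressor known from male-biased growth hormone signaling, stood at 51.5, 6.44 and 30.0 CPM at baseline, 24.4, 16.5 and 11.7 CPM in vehicle livers and 3.72, 7.44 and 8.81 CPM in NSC livers. All NSC livers were below all vehicle livers, baseline replicate 2 was low as well, and NSC against baseline gave an edgeR adjusted p of 0.0551.

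*Igf2*, the fetal IGF ligand, rose in vehicle livers by 2.12 on the log2 scale (edgeR adjusted p = 0.0315), from 0.153 to 0.561 CPM at baseline to 0.701 to 2.83 CPM, and stood at 0.408 to 0.960 CPM in NSC livers. *Igf1r*, the IGF-1 receptor, stayed between 0.274 and 1.37 CPM in all 9 livers, and none of its comparisons passed.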
